A study of Rattus norvegicus with 19 samples.

Results

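The 73 genes described here are the heat shock proteins and J-domain chaperones of the rat, taken from the 17455 gene symbols of the count files by name alone. A symbol was included when it began with Hsp followed by a, b, d, e, h or 90, or with Dnaj followed by a, b or c and a number, and Hspg2, a matrix proteoglycan, was left out. Of the 73 symbols 29 begin with Hsp and 44 with Dnaj. By family they are 3 HSP90, 11 HSP70, 3 HSP110, 2 chaperonin, 7 small heat shock, 4 DNAJA, 13 DNAJB and 27 DNAJC genes, and 3 genes, Hspbp1, Hspbap1 and Hspb11, that match by letters only. By the place where the protein mainly works, 41 belong to the cytosol and nucleus, 12 to the endoplasmic reticulum (ER), 8 to mitochondria and 5 to vesicles and endosomes, and 7 were not assigned. The filter on low counts kept 68 of the 73. Dnajb7, Dnajb8 and Dnajc5g, with 3 counts or fewer in every library, were not detected, and Dnajc5b and Hspb9 reached at most 8 counts.

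HSP70 proteins bind unfolded stretches of other proteins and release them in a cycle driven by ATP. J-domain proteins bring clients and start the ATP step, HSP110 proteins exchange the nucleotide, HSP90 takes over clients that are nearly folded, chaperonins enclose them in a ring, and small heat shock proteins hold unfolded proteins without ATP. In heart muscle these systems look after sarcomere proteins and the import of proteins into mitochondria, and a subset of their genes is switched on by the factor HSF1 when unfolded proteins build up.

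RNA from the left ventricles of Sprague-Dawley rats, 24 weeks old at the start, was sequenced as 19 libraries, 1 per heart, in a study of heart failure with preserved ejection fraction (HFpEF). The model combined L-NAME, an inhibitor of nitric oxide synthesis, at 0.5 g/L in the drinking water with a diet that drew 60% of its kilocalories from lard, both for 5 weeks. Rats with the model then received, for 4 weeks by gavage, empagliflozin (EMPA, 0.35 g/kg/day), pirfenidone (PFD, 0.3 g/kg/day), both, or phosphate-buffered saline. Single-drug groups, EMPA and PFD, have 2 libraries each, since 1 of either was dropped by the authors for corrupted files. The groups control 5w, control 9w, HFpEF, EMPA + PFD and untreated have 3 each. Control 5w and HFpEF were taken at week 5 and the other groups, 4 weeks older, at week 9. Control rats were healthy, ate normal chow and got no L-NAME, and untreated rats had the model and saline without a drug. The sources differ on whether L-NAME and the diet ended at week 5 or went on to week 9.

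Depth ran from 7430539 to 13017754 counts per library with a median of 9951011. It was 11628931, 13017754 and 12616559 in control 5w, 12205327, 9386791 and 10857636 in HFpEF, 8141045, 7803050 and 9409670 in control 9w and 9951011, 10142209 and 9640990 in untreated. The treated groups had 7430539 and 8061054 in EMPA, 9879949 and 10366167 in PFD, and 9360259, 10318343 and 10693001 in EMPA + PFD. Levels are given below in CPM, the usual unit of counts relative to the library's total, after TMM scaling between libraries and in the order of the replicate numbers. CPM is not corrected for gene length, so each gene is compared only with itself.

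Every library is labelled male. The Y-linked gene Eif2s3y had 0 counts in 7 libraries, HFpEF 1 and 3, untreated 1 to 3 and PFD 1 and 2, and 613 to 1321 counts in the other 12. The symbol LOC100911498, whose number is the gene ID that RefSeq lists as Xist, had 13032 to 27077 counts in the same 7 libraries and 1 to 12 in the others. The labels and the counts thus disagree for these 7 libraries. Untreated, without Eif2s3y, and EMPA + PFD, with it, differ in this as well as in the drugs, which cannot be told apart, and the same holds for untreated against control 9w and for EMPA, with Eif2s3y in both libraries, against untreated. HFpEF against control 5w and untreated against HFpEF are split in part. HFpEF 1 and 3 lack Eif2s3y like untreated, while HFpEF 2 has it like control 5w. The comparisons of control 9w with control 5w and of EMPA + PFD with control 9w are between groups that all have Eif2s3y counts. The presence of Eif2s3y was also fitted as a covariate. Only HFpEF has libraries with and without it, so the covariate is estimated from HFpEF 2 against HFpEF 1 and 3 alone and carries the difference of 1 heart over to other groups, and its values below show dependence on the split and are no adjustment for sex. The histocompatibility gene RT1-CE16 had 0 to 3 counts in every library of control 5w, HFpEF and EMPA and 308 to 922 in every other. It thus differs fully, together with time or drug, in control 9w against control 5w, untreated against HFpEF and EMPA against untreated.

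The tissue, heart by label and left ventricle by the methods, was checked against marker genes. Of 7 ventricular cardiomyocyte markers 6 were in the files, Ttn was missing, Myh6 was the most abundant and no marker stood at 0. Their summed CPM was 74759, 37476 and 40846 in control 5w, 11832, 17895 and 31859 in HFpEF, 31332, 36138 and 33012 in control 9w and 54462, 16112 and 50117 in untreated. In the treated groups the sum was 40929.6 and 34302 in EMPA, 56719 and 59169 in PFD, and 66689, 78992 and 62708 in EMPA + PFD. The markers were thus abundant in all 19 libraries, lowest in HFpEF 1, untreated 2 and HFpEF 2 and highest in EMPA + PFD 2 and control 5w 1. All 5 atrial markers were detected, with Nppa the most abundant, and none stood at 0. Their sum was 3284, 6124 and 4649 in control 5w, 2086, 272 and 1968 in HFpEF, 5197, 188 and 23340.2 in control 9w and 48.0, 14872 and 484 in untreated. It was 698 and 5172 in EMPA, 2983 and 62.6 in PFD, and 86.4, 381 and 153 in EMPA + PFD. Control 9w 3 and untreated 2 stand apart by these sums. Control 9w 1 also stands out in atrial markers other than Nppa, with 305 CPM of Myl4, 156 of Sln and 31.2 of Bmp10. In control 9w 2 these were 2.95, 0.984 and 0.984. The tissue is given as ventricle, and the cause was not tested. Leaving out control 9w 3 alone keeps control 9w 1 in the comparisons with control 9w. The 6 fibroblast markers, led by Col3a1 and none at 0, summed to 4429.7 CPM in control 5w 1 but to 40846 and 32902 in control 5w 2 and 3, and to 1994.5 to 15997 in the other libraries. Many, though not all, of the results that rest on control 5w 1, HFpEF 1, control 9w 3 or untreated 2 are therefore also given without them.

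The 73 genes took between 0.7483% of all counts, in untreated 2, and 1.3171%, in EMPA + PFD 2. Differences were tested in 1 model of the 7 groups over 12388 genes with edgeR's quasi-likelihood F test. Adjusted p values are Benjamini-Hochberg values over all these genes, a gene is said to be called at an adjusted p under 0.05, and changes are log2 fold changes with their standard error (SE). Across the 7 groups at once 31 of the 68 tested members were called, while 50.3% of all tested genes were. This count fell to 20 without control 5w 2 and to 20 without EMPA + PFD 3. The share of all genes ran from 38.2% to 55.9% when 1 library was left out. In the 10 single comparisons 34 of the 68 members were called at least once and 34 never. The matching share of all genes was not counted, so this number is not a result about the members. Several comparisons share libraries, for instance control 5w in both comparisons at week 5 and untreated in all comparisons of drugs, so their values are given side by side and not as separate support.

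The comparison of HFpEF with control 5w asks what the model did by week 5, though HFpEF 1 and 3 also differ from control 5w in Eif2s3y. In it 1 member was called higher, against 9.83% of all genes, and 12 were called lower, against 10.2%. With a change of at least 2-fold as a second condition 5 members were called, all lower, against 8.69% of all genes. The median log2 fold change was −0.19 over the 68 members and 0.02 over all genes, and −0.45 and −0.07 with the presence of Eif2s3y as a covariate. The count of 13 members fell to 7 without control 5w 1, 6 without control 5w 3, 8 without HFpEF 1 and 6 without HFpEF 2, and rose to 20 without untreated 2. Over the fits that leave out 1 library, 12% to 25.3% of all genes were called. With the covariate 9 members were called, with no share of all genes given for that fit. Of the 12 lower members 9 are described gene by gene below, and the other 3, all DNAJC genes, changed by −0.90 to −0.59.

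The controls of weeks 5 and 9 differ by time, by the RT1-CE16 split and by whatever else separated the harvests. Between them 5 members were called higher at week 9, against 17.3% of all genes, and 16 lower, against 17.2%. At least 2-fold changes were called for 10 members, 2 higher and 8 lower, against 14.7% of all genes. The median was −0.21 over the members and −0.04 over all genes. Without control 9w 1 the count of 21 members fell to 11, and without control 9w 2 to 9. It was 24 without control 9w 3 and 19 without control 5w 1. The share of all genes ran from 20.9% to 38.4% when 1 library was left out. Of the 16 lower members 12 are described gene by gene below, and the other 4 changed by −0.87 to −0.47.

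Untreated was compared with control 9w for the model at week 9, and with HFpEF for the course of the untreated model. No member was called by edgeR in either, against 1.78% and 0.226% of all genes. At an unadjusted p under 0.05 there were 14 members in the first, against 18.2% of all genes, and 13 in the second, against 22.7%. DESeq2 called 4 and 3 members, against 6.69% and 7.75% of all genes. The medians were 0.10 and 0.11 over the members and 0.01 and −0.01 over all genes. The members' median against control 9w was 0.15 without control 9w 3, −0.00493 without untreated 1, 0.22 without untreated 2, 0.04 without untreated 3 and −0.05 with the Eif2s3y covariate. Against HFpEF it was 0.05 without HFpEF 2, 0.03 without untreated 1, 0.17 without untreated 2, 0.06 without untreated 3 and 0.05 with the covariate. These counts of 0 rest on untreated 2. Without it 11 members were called against control 9w, all higher, when 8.22% of all genes were, and 14 against HFpEF, 13 of them higher, when 14.5% of all genes were. Without control 5w 1 there was 1 member called lower against control 9w, and 2 lower against HFpEF.

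EMPA + PFD against untreated shows the drugs together in rats with the model. In it 8 members were called higher, against 6.6% of all genes, and 0 lower by edgeR, against 5.52%. At an unadjusted p under 0.05 there were 19 members in either direction, these 8 among them, against 32.7% of all genes. DESeq2 called 17, against 20.6%. At least 2-fold changes were called for 4 members, against 3.82% of all genes. The median was 0.26 over the members and −0.03 over all genes. Without untreated 2 these were 0.15 and 0.00193, and with the Eif2s3y covariate 0.49 and 0.08. The count of 8 fell to 1 without untreated 2, to 2 without untreated 3, to 1 without EMPA + PFD 2 and to 1 without EMPA + PFD 3, and rose to 13 without control 5w 1 or untreated 1. Over the fits that leave out 1 library, 0.888% to 18.3% of all genes were called. The Eif2s3y covariate left 5 calls, of which 2 were among the 8, with no share of all genes given for that fit. A fit of only these 6 libraries left 0, against 0.0435% of all genes. The 2 called members not described gene by gene below, both DNAJB genes, changed by 0.35 and 0.56. Of the members called here, Dnajc16 alone kept its call whichever of the 19 libraries was left out.

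Of the single drugs, EMPA against untreated gave 0 members by edgeR, against 0.0404% of all genes, and PFD against untreated gave 0, against 0.00807%. At an unadjusted p under 0.05 there were 6 members for EMPA and 1 for PFD, against 8.63% and 5.21% of all genes, and DESeq2 called 1 and 0, against 0.783% and 0.0404%. The medians over the members were 0.05 and 0.16, and over all genes 0.01 and −0.02. For EMPA the members' median was 0.09 without untreated 1, −0.09 without untreated 2, 0.13 without untreated 3, −0.00376 without EMPA 2, 0.10 with the replicate number as a block, 0.03 with upper quartile scaling and 0.22 with the Eif2s3y covariate, so its direction rests on single libraries. For PFD it was 0.05 without untreated 2. The test of whether the effect of both drugs differed from the sum of the single effects gave 0 members by edgeR, against 0.00807% of all genes, with 11 at an unadjusted p under 0.05, against 9.13%, and 1 by DESeq2, against 0.436%. Groups of 2 libraries limit these comparisons, and EMPA differs from untreated in Eif2s3y and RT1-CE16 as well as in the drug.

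EMPA + PFD was also compared with control 9w, that is, treated model rats with rats that had neither model nor drug. Here 25 members were called higher, against 17.1% of all genes, and 2 lower, against 16.6%. At least 2-fold changes were called for 13, against 12.1% of all genes. The median was 0.35 over the members and −0.08 over all genes. The count of 27 fell to 16 without control 9w 2 and was 24 without control 9w 3 and 30 without untreated 2. Over the fits that leave out 1 library, 20% to 37% of all genes were called. The 8 higher members not described gene by gene below changed by 0.39 to 1.12. When libraries were scaled by the upper quartile in place of TMM the medians became 0.29 and −0.14 here, and 0.17 and −0.12 for EMPA + PFD against untreated, so the members' medians stayed above those of all genes.

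The last comparison asks whether the model's effect differed between the time points, as the effect at week 9 (untreated against control 9w) minus that at week 5 (HFpEF against control 5w). The difference was called above 0 for 12 members, against 9.76% of all genes, and below 0 for 1, against 10.2%. The median difference was 0.30 over the members and −0.02 over all genes. Over the members it was 0.15 without control 5w 1, 0.17 without untreated 1 and 0.47 without untreated 2. The count of 13 fell to 7 without untreated 1 and rose to 24 without untreated 2. Over the fits that leave out 1 library, 10.7% to 29.9% of all genes were called.

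**Figure D1:**
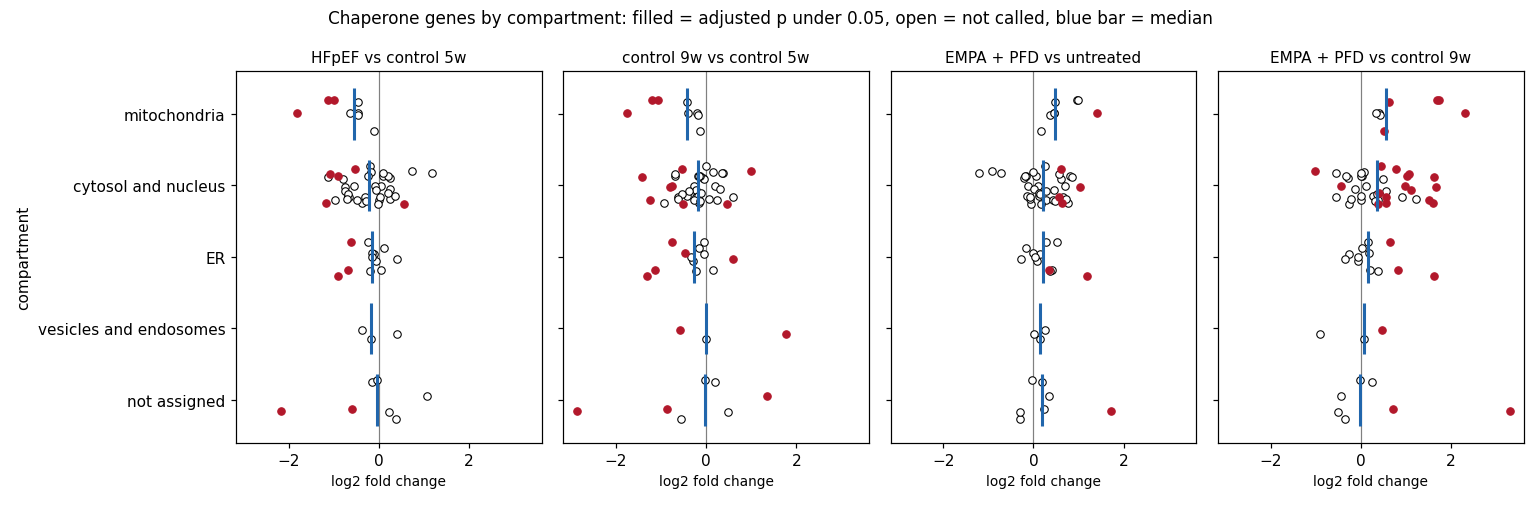
Each point is 1 tested member, placed by its log2 fold change (horizontal axis) and its compartment (vertical axis), in HFpEF vs control 5w, control 9w vs control 5w, EMPA + PFD vs untreated and EMPA + PFD vs control 9w. Filled points are called at an adjusted p under 0.05, open points are not, and the blue bar is the median. For the 8 mitochondrial members it is −0.55, −0.42, 0.47 and 0.57 with all libraries, of which the first 2 values shrink without control 5w 1 and the third without untreated 2.

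By compartment, the 8 mitochondrial members had medians of −0.55 in HFpEF vs control 5w and −0.42 in control 9w vs control 5w, with 3 called lower in either, beside the 10.2% and 17.2% of all genes given above. Both values rest on control 5w 1. Without it the medians were −0.29 and −0.15, 1 member was called lower in either, and 3 of the 8 were above 0, whereas all 8 were below 0 with it. The mitochondrial members had medians of 0.47 in EMPA + PFD vs untreated, with 1 called higher, and 0.57 in EMPA + PFD vs control 9w, with 5 called higher, beside 6.6% and 17.1% of all genes. The first of these rests on untreated 2, without which the median was 0.25, that call was lost and 7 of the 8 were above 0. The second was 0.55 to 0.60 whichever library was left out, with 4 to 6 called higher and all 8 above 0. Leaving out libraries for these medians was chosen after seeing the data. The same shares of all genes apply to the other compartments. Of the 38 tested members of the cytosol and nucleus, 1 was higher and 4 lower in the first of these comparisons, 2 and 6 in the second, 4 and 0 in the third and 14 and 2 in the last. When 1 library was left out, the lower counts of the first 2 ran from 0 to 10 and 0 to 9. The higher counts of the last 2 ran from 0 to 7 and 7 to 15. The medians of these 38 were −0.21, −0.18, 0.21 and 0.37, and when 1 library was left out they ran from −0.30 to −0.14, −0.24 to −0.15, 0.08 to 0.34 and 0.24 to 0.45. Of the 12 ER members 3 were lower in the first, 1 higher and 4 lower in the second, 2 higher in the third and 3 higher in the last, with medians of −0.16, −0.26, 0.21 and 0.17. These medians ran from −0.22 to −0.04, −0.40 to −0.19, 0.17 to 0.26 and 0.11 to 0.24. The ER counts of lower members in the first 2 ran from 1 to 3 and 3 to 5, and those of higher members in the last 2 from 1 to 3 and 1 to 3. By family the lowest medians of HFpEF vs control 5w were −0.88 in the 2 chaperonins (−1.12 to −0.58 when 1 library was left out) and −0.73 in the 6 small heat shock genes (−1.12 to −0.57). The highest of EMPA + PFD vs control 9w were 1.01 in the chaperonins (0.96 to 1.09) and 1.07 in the 4 DNAJA genes (0.96 to 1.22). The test was not run between compartments or families.

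Summed over the 8 mitochondrial members, the level was 2130.0, 1166 and 1262 CPM in control 5w, 632, 571 and 925 in HFpEF, 687, 735 and 782 in control 9w and 1435, 496 and 1228 in untreated. In the treated groups the sum was 1004 and 959 in EMPA, 1511 and 1552 in PFD, and 1797, 2374 and 2072 in EMPA + PFD. HFpEF and control 9w lay below every control 5w library, and untreated was split, with untreated 2 the lowest of all 19. The 12 ER members together ranged only from 1216 to 1806 CPM, and the lowest and highest were control 9w 2 and control 5w 2. The cardiomyocyte marker sum, like the mitochondrial sum, was low in HFpEF 1, HFpEF 2 and untreated 2 and high in EMPA + PFD 2. In control 9w the marker sum was 31332, 36138 and 33012 CPM, against 37476 and 40846 in control 5w 2 and 3. The mitochondrial sum there was 687, 735 and 782, against 1166 and 1262. The part of the cardiomyocyte markers in the members' changes was not tested. In RNA of ventricle tissue fewer cells of a type and less RNA per cell cannot be told apart.

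Among the mitochondrial genes, Hspa9 encodes mortalin, the HSP70 of the matrix that pulls imported proteins across the inner membrane. In CPM, Hspa9 was 702, 353 and 387 in control 5w and 126, 91.2 and 191 in HFpEF at week 5. Hspa9 at week 9 was 134, 128 and 167 in control 9w, 396, 112 and 294 in untreated, 191 and 191 in EMPA, 407 and 441 in PFD and 506, 879.9 and 758 in EMPA + PFD. Every HFpEF and control 9w library lay below every control 5w library, and every EMPA + PFD library lay above every untreated and control 9w library. In log2 fold change Hspa9 was −1.82 (SE 0.40, adjusted p 0.00826) in HFpEF and −1.75 (SE 0.40, adjusted p 0.00454) in control 9w against control 5w. It was 1.42 (SE 0.39, adjusted p 0.0347) in EMPA + PFD against untreated and 2.32 (SE 0.41, adjusted p 0.00133) against control 9w. The call against untreated was lost without untreated 2, untreated 3, EMPA + PFD 2 or EMPA + PFD 3, at adjusted p of 0.0696 to 0.129, and with the Eif2s3y covariate, at 0.0875, and the other 3 calls were kept whichever library was left out. The difference between the disease effects was 2.72 (SE 0.56, adjusted p 0.00583), called also without each library in turn.

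Hspd1 and Hspe1 encode HSP60 and HSP10, the ring and the lid of the chaperonin in the mitochondrial matrix. Hspd1 was 702, 439.8 and 472 in control 5w and 241, 180.3 and 321 in HFpEF at week 5. Hspd1 at week 9 was 215, 228 and 257 in control 9w, 526, 149.7 and 468 in untreated, 372 and 368 in EMPA, 558 and 570.3 in PFD and 687, 851 and 723 in EMPA + PFD. Hspe1 was 184, 92.3 and 106 in control 5w and 68.1, 69.0 and 107 in HFpEF at week 5. Hspe1 at week 9 was 90.4, 103 and 94.6 in control 9w, 106, 48.7 and 109.9 in untreated, 116 and 91.8 in EMPA, 122 and 116 in PFD and 136, 123 and 105 in EMPA + PFD. Hspd1 in HFpEF and control 9w lay below all of control 5w, whereas Hspe1 overlapped between these groups, and untreated 2 was the lowest library for both. The log2 fold change of Hspd1 was −1.12 (SE 0.34, adjusted p 0.0337) in HFpEF and −1.20 (SE 0.34, adjusted p 0.0152) in control 9w against control 5w, 0.98 (SE 0.34, adjusted p 0.0686) in EMPA + PFD against untreated, which is not called and was 0.60 without untreated 2, and 1.69 (SE 0.35, adjusted p 0.003) against control 9w. The call in HFpEF was lost without control 5w 1, control 5w 3, HFpEF 1 or HFpEF 2 (adjusted p 0.0548 to 0.116) and with the Eif2s3y covariate (0.0646), and that in control 9w without control 5w 1, control 9w 1 or control 9w 2 (adjusted p 0.0529 to 0.0551). Hspe1 was called in none of the 10 comparisons, with −0.65 (SE 0.29, adjusted p 0.127) in HFpEF, or −0.28 (adjusted p 0.517) without control 5w 1, and 0.34 (SE 0.29, adjusted p 0.395) in EMPA + PFD against control 9w. In GRCr8 the full records of the 2 genes overlap, with −5 bases between them, while the starts used for their promoters below lie apart. Whether the changes of the 2 genes differ was not tested.

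Dnaja3 encodes the J-domain partner of mortalin in the matrix. Dnaja3 was 189.7, 105 and 114 in control 5w and 56.0, 59.5 and 91.1 in HFpEF at week 5. Dnaja3 at week 9 was 60.7, 60.0 and 72.8 in control 9w, 160.5, 51.6 and 117 in untreated, 86.4 and 77.9 in EMPA, 141 and 162 in PFD and 191, 236 and 218 in EMPA + PFD. All EMPA + PFD libraries were above all others, and HFpEF and control 9w were below control 5w. Dnaja3 changed by −0.98 (SE 0.32, adjusted p 0.0437) in HFpEF, −1.08 (SE 0.32, adjusted p 0.0193) in control 9w and, against control 9w, 1.74 (SE 0.33, adjusted p 0.00199) in EMPA + PFD. Against untreated it was 0.97 (SE 0.32, adjusted p 0.0594), not called, and 0.63 without untreated 2. The call in HFpEF was lost in 14 of the 19 fits that leave out 1 library (adjusted p 0.0504 to 0.179), all but those without control 5w 2, HFpEF 3, untreated 1, untreated 2 or EMPA + PFD 1, and with the Eif2s3y covariate (0.13). That in control 9w was lost without control 5w 1, control 9w 1 or control 9w 2 (adjusted p 0.0632 to 0.0827). The call against control 9w was kept in all 19. The other 4 mitochondrial members, all J-domain genes, had log2 fold changes of −0.46 to −0.11 in HFpEF and 0.41 to 0.63 in EMPA + PFD against control 9w, where 2 of the 4 were called.

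**Figure D2:**
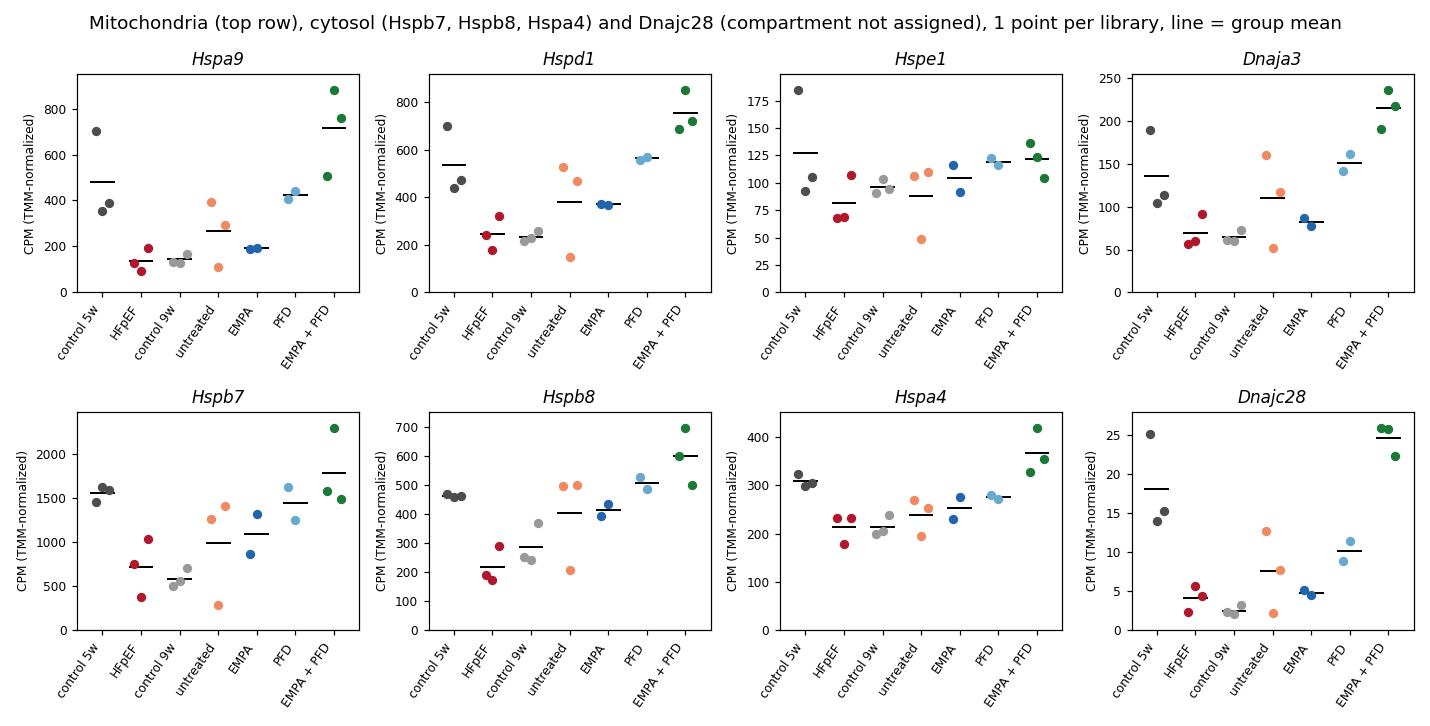
CPM (vertical axis, from 0) of 8 members in the 19 libraries by group (horizontal axis), 1 point per library, with a line at each group's mean. In the top row, of mitochondrial genes, Hspa9 spans 91.2 to 879.9 CPM and Hspe1 48.7 to 184, and Dnajc28, at the lower right, is above 20 CPM in EMPA + PFD and in control 5w 1 alone.

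Dnajc28, a J-domain gene without an assigned compartment, had the largest log2 fold change of any member in 7 of the 10 comparisons, of which 5 were called, with counts of 16 to 266 per library. Dnajc28 was 25.1, 13.97 and 15.3 in control 5w and 2.22, 5.59 and 4.38 in HFpEF at week 5. Dnajc28 at week 9 was 2.26, 1.97 and 3.19 in control 9w, 12.7, 2.11 and 7.69 in untreated, 5.06 and 4.49 in EMPA, 8.87 and 11.4 in PFD and 25.9, 25.7 and 22.3 in EMPA + PFD. Control 5w and EMPA + PFD were high and apart from HFpEF and control 9w, and the 3 untreated libraries spread from the level of control 9w to just below control 5w. Dnajc28 changed by −2.16 (SE 0.47, adjusted p 0.00817) in HFpEF and −2.86 (SE 0.50, adjusted p 0.000964) in control 9w against control 5w. In EMPA + PFD it was 1.73 (SE 0.46, adjusted p 0.0296) against untreated and 3.30 (SE 0.50, adjusted p 0.000752) against control 9w. The call against untreated was lost without untreated 2, untreated 3, EMPA + PFD 2 or EMPA + PFD 3 (adjusted p 0.0678 to 0.104). With the Eif2s3y covariate the change in HFpEF became −1.69, at an adjusted p of 0.127, and that against untreated 0.96, at 0.527, neither called. In the GRCr8 annotation Dnajc28 is overlapped by the gene Son, and the strand setting of the counting is not stated, so reads of Son may have been counted here.

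Of the ER members, Dnajc16 encodes a J-domain protein of the ER membrane. Dnajc16 was 21.4, 17.7 and 18.8 in control 5w and 10.3, 9.17 and 11.2 in HFpEF at week 5. Dnajc16 at week 9 was 7.67, 7.01 and 8.57 in control 9w, 11.9, 10.1 and 9.80 in untreated, 6.39 and 10.4 in EMPA, 13.04 and 14.4 in PFD and 22.0, 27.7 and 22.6 in EMPA + PFD. The 3 EMPA + PFD libraries were above all others, followed by control 5w, and the remaining groups lay below all of control 5w. Dnajc16 changed by −0.91 (SE 0.17, adjusted p 0.00386) in HFpEF and −1.31 (SE 0.18, adjusted p 0.000213) in control 9w against control 5w, and 1.19 (SE 0.17, adjusted p 0.00482) in EMPA + PFD against untreated and 1.63 (SE 0.18, adjusted p 0.000276) against control 9w. All 4 calls were kept whichever library was left out. In GRCr8 it is overlapped by Agmat. Hspa13 encodes an HSP70-like ATPase of the ER that lacks the domain for binding clients. Hspa13 was 20.2, 26.3 and 21.3 in control 5w and 17.1, 11.6 and 13.3 in HFpEF at week 5. Hspa13 at week 9 was 10.3, 6.27 and 14.1 in control 9w, 14.3, 14.05 and 12.2 in untreated, 9.72 and 11.8 in EMPA, 12.7 and 13.6 in PFD and 16.2, 18.7 and 19.2 in EMPA + PFD. All of control 5w was above HFpEF and control 9w, with log2 fold changes of −0.69 (SE 0.22, adjusted p 0.0422) and −1.14 (SE 0.23, adjusted p 0.00219). The call in HFpEF was kept without HFpEF 1, control 9w 2 or 3, untreated 1 or 2, EMPA 1 or 2, or EMPA + PFD 1, and lost without any of the other 11 libraries, at adjusted p of 0.0515 to 0.136, and with the Eif2s3y covariate, at 0.0748. That in control 9w was kept in all 19 fits. In EMPA + PFD it was 0.82 (SE 0.23, adjusted p 0.0145) against control 9w, lost without control 9w 2 at an adjusted p of 0.0552.

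Of the chaperones of the ER lumen, Hspa5, Hsp90b1 and Dnajc3 showed no call in the 10 comparisons. Hspa5 encodes BiP, the HSP70 of the ER lumen, and ranged from 361 to 745 CPM, lowest in HFpEF 2 and highest in EMPA + PFD 1. Hsp90b1 encodes GRP94, the HSP90 of the ER, and ranged from 359 to 628, lowest in EMPA + PFD 2 and highest in control 5w 3. Dnajc3, whose product p58IPK is a J-domain partner of BiP, ranged from 24.7 to 45.6. In HFpEF their log2 fold changes were −0.20 (SE 0.21, adjusted p 0.51), −0.15 (SE 0.18, adjusted p 0.561) and −0.06 (SE 0.18, adjusted p 0.851), and that of Hspa5 was 0.02 without HFpEF 2. The median of the 3 HSP90 genes, which Hsp90b1 sets, was −0.02 without HFpEF 2 and −0.30 without HFpEF 1. Of the J-domain partners of BiP, Dnajb9, ERdj4, was 0.64 (SE 0.18, adjusted p 0.0142) in EMPA + PFD against control 9w, lost without control 9w 2 at an adjusted p of 0.0703. Dnajb11, ERdj3, ranged from 54.1 to 88.3 CPM and was called across the 7 groups (adjusted p 0.0278) but in no single comparison.

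Among the small heat shock genes of the cytosol, Hspb7 encodes a heat shock protein of heart and skeletal muscle that binds filamin. Hspb7 was 1454, 1619 and 1593 in control 5w and 745, 371 and 1033 in HFpEF at week 5. Hspb7 at week 9 was 494, 550.1 and 703 in control 9w, 1257, 284 and 1408 in untreated, 861 and 1315 in EMPA, 1620.4 and 1251 in PFD and 1573, 2294 and 1490.5 in EMPA + PFD. Control 5w was above all of HFpEF and control 9w, untreated 2 was far below untreated 1 and 3, and EMPA + PFD was above all untreated libraries. Hspb7 changed by −1.12 (SE 0.46, adjusted p 0.0954) in HFpEF, not called, −1.42 (SE 0.46, adjusted p 0.0286) in control 9w against control 5w, and 1.62 (SE 0.47, adjusted p 0.0163) in EMPA + PFD against control 9w. The call in control 9w was lost without control 5w 2, control 5w 3, control 9w 1 or control 9w 2 (adjusted p 0.0627 to 0.0944). That of EMPA + PFD was lost without control 9w 1, control 9w 2 or EMPA + PFD 2 (adjusted p 0.0585 to 0.0625).

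Hspb8 works with the co-chaperone Bag3 in the autophagy of damaged proteins. Hspb8 was 469, 457 and 459.9 in control 5w and 189.9, 172 and 289 in HFpEF at week 5. Hspb8 at week 9 was 252, 239.8 and 368 in control 9w, 497, 207 and 500.2 in untreated, 393 and 435 in EMPA, 527 and 486 in PFD and 600.1, 697 and 501 in EMPA + PFD. HFpEF was below control 5w in all 3 libraries, at −1.09 (SE 0.29, adjusted p 0.0186), lost without HFpEF 1 or HFpEF 2 (adjusted p 0.0595 to 0.0697) and with the Eif2s3y covariate (0.0517). EMPA + PFD was above all of control 9w, at 1.06 (SE 0.29, adjusted p 0.0121), lost without control 9w 1 or control 9w 2 (adjusted p 0.0510 to 0.0566). Hspb6, whose product is phosphorylated in relaxing muscle and which Lin37 overlaps in GRCr8, ranged from 338 to 2223 CPM and was not called, with 1.23 (SE 0.47, adjusted p 0.0571) in EMPA + PFD against control 9w. Hspb2, which Cryab overlaps in GRCr8 so that reads of Cryab may have been counted for it, and Hspb3, whose products form a complex in muscle, ranged from 43.8 to 130.0 and from 22.9 to 83.4 CPM and were not called, with log2 fold changes in HFpEF of −0.75 (SE 0.27, adjusted p 0.0615) and −0.69 (SE 0.27, adjusted p 0.0816). In all 6 tested small heat shock genes the change was below 0 in HFpEF and in control 9w against control 5w.

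HSP110 genes encode nucleotide exchange factors of HSP70. Hspa4 is the general one. Hspa4 was 324, 299.6 and 305 in control 5w and 232, 179 and 232 in HFpEF at week 5. Hspa4 at week 9 was 198, 206 and 239 in control 9w, 270.3, 195 and 253 in untreated, 229.9 and 276 in EMPA, 280.1 and 272 in PFD and 327, 419.6 and 354 in EMPA + PFD. The EMPA + PFD libraries were above all others, and HFpEF and control 9w were below all of control 5w. Hspa4 changed by −0.53 (SE 0.15, adjusted p 0.0247) in HFpEF, −0.53 (SE 0.15, adjusted p 0.0145) in control 9w, 0.62 (SE 0.15, adjusted p 0.0233) in EMPA + PFD against untreated and 0.78 (SE 0.15, adjusted p 0.00225) against control 9w. The call in HFpEF was lost without control 5w 1, control 5w 3 or HFpEF 2 (adjusted p 0.0564 to 0.0968) and that in control 9w without control 9w 1 or 2 (adjusted p 0.0567 to 0.0613). The call against untreated was lost without untreated 2, untreated 3, EMPA + PFD 2 or EMPA + PFD 3 (adjusted p 0.0505 to 0.104).

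Hspa4l encodes a close relative of Hspa4. Hspa4l was 28.0, 24.4 and 22.0 in control 5w and 9.83, 9.72 and 18.5 in HFpEF at week 5. Hspa4l at week 9 was 8.12, 10.1 and 13.3 in control 9w, 28.9, 7.96 and 29.5 in untreated, 17.4 and 18.7 in EMPA, 24.2 and 25.0 in PFD and 25.2, 36.9 and 27.9 in EMPA + PFD. Control 9w was below all of control 5w, at −1.24 (SE 0.38, adjusted p 0.0223), lost without control 5w 1, control 9w 1 or control 9w 2 (adjusted p 0.0505 to 0.0878). In EMPA + PFD against control 9w it was 1.51 (SE 0.39, adjusted p 0.00884). Untreated 1 and 3 were as high as control 5w and untreated 2 as low as control 9w. The difference between the disease effects was 2.04 (SE 0.54, adjusted p 0.0176), lost without untreated 1 at an adjusted p of 0.0537.

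Hsp90ab1 encodes the HSP90 of the cytosol that is made constantly, and ranged from 810.1 to 2218 CPM. Its 3 EMPA + PFD libraries were above all others. The log2 fold change was −0.75 (SE 0.22, adjusted p 0.0168) in control 9w against control 5w, lost without control 9w 1 or 2 (adjusted p 0.0567 to 0.0707), 0.70 (SE 0.22, adjusted p 0.0505) in EMPA + PFD against untreated, not called by edgeR, and 0.97 (SE 0.22, adjusted p 0.00476) against control 9w. DESeq2 called the change of Hsp90ab1 against untreated, at 0.72 with an adjusted p of 0.00739. By edgeR it was called without control 5w 1, HFpEF 2, untreated 1 or EMPA + PFD 1 (adjusted p 0.0407, 0.0405, 0.0297 and 0.0432). Hspa8, the constant HSP70 of the cytosol, ranged from 557 to 1501 CPM and was not called, with −0.47 (SE 0.23, adjusted p 0.155) in HFpEF and 0.63 (SE 0.23, adjusted p 0.0801) in EMPA + PFD against untreated. The change in HFpEF rests in part on HFpEF 2, at 557 CPM against 952 and 1012 in HFpEF 1 and 3. It rests in part also on control 5w 1, at 1440 against 1025 and 1035.5 in control 5w 2 and 3. Hspa14, an HSP70 relative at the ribosome that Msantd7 overlaps in GRCr8, ranged from 23.2 to 36.8 CPM and was called only in EMPA + PFD against control 9w, at 0.41 (SE 0.12, adjusted p 0.0184), lost without control 9w 1 or EMPA + PFD 1 (adjusted p 0.0565 to 0.0734). Hspa2, the HSP70 known from the testis, ranged from 3.86 to 30.1 CPM, and Hspa12a, a distant HSP70 relative that Eno4 overlaps in GRCr8, from 23.7 to 53.0, and neither was called.

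Of the J-domain partners of cytosolic HSP70, Dnaja4, of the DNAJA family, had its lowest value in HFpEF 2. Dnaja4 was 174, 156 and 168 in control 5w and 72.6, 49.5 and 99.0 in HFpEF at week 5. Dnaja4 at week 9 was 73.5, 61.7 and 127 in control 9w, 191, 63.9 and 211 in untreated, 126 and 167 in EMPA, 186 and 174 in PFD and 236, 331 and 223 in EMPA + PFD. All EMPA + PFD libraries were above all others, and all HFpEF libraries below control 5w. Dnaja4 changed by −1.17 (SE 0.38, adjusted p 0.0398) in HFpEF, lost in 6 of the 19 fits that leave out 1 library, those without control 5w 1, 2 or 3, HFpEF 1, HFpEF 2 or control 9w 1 (adjusted p 0.0503 to 0.134), and with the Eif2s3y covariate (0.0616). It was 1.59 (SE 0.38, adjusted p 0.00625) in EMPA + PFD against control 9w, kept in all 19. Dnaja1, the DNAJA partner of HSP70 that HSF1 also drives, went the other way. Dnaja1 was 134, 156 and 155 in control 5w and 153, 151 and 159 in HFpEF at week 5. Dnaja1 at week 9 was 167, 166 and 180.4 in control 9w, 125, 132 and 156 in untreated, 133 and 154 in EMPA, 127 and 136 in PFD and 121, 136 and 121 in EMPA + PFD. EMPA + PFD was below all of control 9w, at −0.44 (SE 0.11, adjusted p 0.00709), kept in all 19 fits. Dnaja2, its close relative, was 0.63 (SE 0.17, adjusted p 0.0304) in EMPA + PFD against untreated and 0.55 (SE 0.17, adjusted p 0.0215) against control 9w. The first was lost without untreated 2, untreated 3, EMPA + PFD 2 or EMPA + PFD 3 (adjusted p 0.0581 to 0.130) and with the Eif2s3y covariate (0.141), and the second without control 9w 1, control 9w 2 or EMPA + PFD 2 (adjusted p 0.0646 to 0.0738).

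Dnajb4 belongs to the DNAJB family, which brings misfolded proteins to HSP70. Dnajb4 was 82.1, 114 and 116 in control 5w and 61.7, 50.2 and 73.5 in HFpEF at week 5. Dnajb4 at week 9 was 57.8, 48.2 and 73.6 in control 9w, 106, 70.6 and 105 in untreated, 102 and 111 in EMPA, 129.6 and 116 in PFD and 116, 249 and 209 in EMPA + PFD. EMPA + PFD 2 and 3 were the highest, and EMPA + PFD 1 was near control 5w and PFD. Dnajb4 changed by −0.80 (SE 0.26, adjusted p 0.0266) in control 9w against control 5w, 1.02 (SE 0.26, adjusted p 0.0249) in EMPA + PFD against untreated and 1.68 (SE 0.26, adjusted p 0.00082) against control 9w. The first was lost without control 5w 2, control 5w 3, control 9w 1 or control 9w 2 (adjusted p 0.0782 to 0.114) and the second without untreated 2, untreated 3, EMPA + PFD 2 or EMPA + PFD 3 (adjusted p 0.0513 to 0.118) and with the Eif2s3y covariate (0.0874), and the third was kept in all 19 fits.

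The few members that were called higher in HFpEF or control 9w than in control 5w are unlike in role. Dnajc17 carries an RNA-binding domain beside the J-domain, and in GRCr8 the gene C3h15orf62 overlaps it. Dnajc17 was 12.2, 10.3 and 9.87 in control 5w and 14.6, 17.9 and 15.2 in HFpEF at week 5. Dnajc17 at week 9 was 15.0, 15.4 and 14.1 in control 9w, 12.8, 13.2 and 12.9 in untreated, 18.1 and 15.7 in EMPA, 12.9 and 12.1 in PFD and 14.1, 10.9 and 12.3 in EMPA + PFD. All HFpEF and control 9w libraries were above all of control 5w. Dnajc17 changed by 0.56 (SE 0.13, adjusted p 0.0118) in HFpEF, kept in all 19 fits, and 0.45 (SE 0.13, adjusted p 0.0168) in control 9w, lost without control 5w 2, control 5w 3 or control 9w 2 (adjusted p 0.0579 to 0.0710). Its disease effect at week 9 was below that at week 5, by −0.75 (SE 0.19, adjusted p 0.0138). Dnajc6 encodes auxilin, which helps HSP70 strip clathrin from vesicles, and had only 2 to 11 counts per library. Dnajc6 was 0.377, 0.233 and 0.318 in control 5w and 0.574, 0.183 and 0.447 in HFpEF at week 5. Dnajc6 at week 9 was 0.902, 1.23 and 1.10 in control 9w, 0.844, 0.244 and 0.632 in untreated, 1.07 and 0.243 in EMPA, 0.329 and 0.309 in PFD and 0.710, 0.359 and 0.627 in EMPA + PFD. Control 9w was above all of control 5w, at 1.77 (SE 0.55, adjusted p 0.0235), lost without control 5w 2, control 5w 3 or control 9w 2 (adjusted p 0.0626 to 0.0834).

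Dnajb13, known from the axoneme of sperm and cilia, had 6 to 41 counts per library. Dnajb13 was 0.565, 1.01 and 1.11 in control 5w and 2.94, 0.642 and 2.05 in HFpEF at week 5. Dnajb13 at week 9 was 2.26, 1.35 and 3.29 in control 9w, 1.58, 1.46 and 0.948 in untreated, 1.33 and 2.31 in EMPA, 1.64 and 1.85 in PFD and 1.42, 2.15 and 1.57 in EMPA + PFD. Control 9w was above all of control 5w, at 1.35 (SE 0.49, adjusted p 0.0441), a call lost in 10 of the 19 fits that leave out 1 library, those without control 5w 1, 2 or 3, HFpEF 3, control 9w 1, control 9w 3, untreated 1, PFD 1, PFD 2 or EMPA + PFD 3 (adjusted p 0.0508 to 0.168). Dnajb14, a J-domain protein of the ER membrane that draws on cytosolic HSP70, ranged from 7.22 to 13.6 CPM. It was 0.60 (SE 0.17, adjusted p 0.0144) in control 9w, lost without control 9w 1 at an adjusted p of 0.0833. Dnajc5 encodes the cysteine string protein of secretory vesicles and ranged from 16.9 to 29.5 CPM. It went the other way, with −0.58 (SE 0.15, adjusted p 0.0083) in control 9w, kept in all 19 fits, and 0.47 (SE 0.15, adjusted p 0.0231) in EMPA + PFD against control 9w, lost without control 9w 2, control 9w 3, EMPA + PFD 2 or EMPA + PFD 3 (adjusted p 0.0705 to 0.0936).

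Hspa12b is a distant HSP70 relative known from endothelial cells. Hspa12b was 159.5, 122 and 128 in control 5w and 114, 349 and 215 in HFpEF at week 5. Hspa12b at week 9 was 269.7, 349.8 and 197 in control 9w, 244, 239 and 279 in untreated, 274 and 213 in EMPA, 182 and 234 in PFD and 165, 124 and 114 in EMPA + PFD. Control 9w was above control 5w and EMPA + PFD, while HFpEF ranged over both. The log2 fold change was 1.00 (SE 0.31, adjusted p 0.0234) in control 9w against control 5w, lost without control 5w 2, control 5w 3, control 9w 1 or control 9w 2 (adjusted p 0.0530 to 0.111). In EMPA + PFD against control 9w it was −1.01 (SE 0.31, adjusted p 0.0223), lost without control 9w 1, control 9w 2, EMPA + PFD 2 or EMPA + PFD 3 (adjusted p 0.0517 to 0.1). The 5 endothelial markers, led by Vwf and none at 0, summed to 1368, 1182 and 1354 CPM in control 5w, 1315, 2605 and 2198 in HFpEF, 2935, 2927 and 2544 in control 9w and 2300.2, 2663 and 2483 in untreated. They summed to 2307 and 1778 in EMPA, 1898 and 2014 in PFD, and 1587, 1435 and 1537 in EMPA + PFD. Of the 5 markers 4 were called higher in control 9w against control 5w and 4 lower in EMPA + PFD against control 9w, and their part in the change of Hspa12b was not tested.

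The genes most used as signs of a heat shock response were not called in any single comparison. Hspa1a and Hspa1b encode the inducible HSP70 and are nearly identical in sequence, so reads may have been assigned to either or left out. Hspa1a was 6.595, 4.97 and 7.08 in control 5w and 9.47, 3.03 and 6.52 in HFpEF at week 5. Hspa1a at week 9 was 8.91, 8.73 and 10.7 in control 9w, 6.22, 7.23 and 7.17 in untreated, 12.4 and 7.53 in EMPA, 6.90 and 7.30 in PFD and 5.91, 9.21 and 4.39 in EMPA + PFD. Hspa1b was 3.11, 2.25 and 2.15 in control 5w and 3.66, 2.29 and 2.05 in HFpEF at week 5. Hspa1b at week 9 was 3.16, 2.71 and 3.89 in control 9w, 16.4, 3.41 and 2.84 in untreated, 2.00 and 4.37 in EMPA, 2.41 and 3.50 in PFD and 3.55, 3.23 and 3.03 in EMPA + PFD. For Hspa1a, control 9w and EMPA were above all of control 5w, untreated and PFD and overlapped with HFpEF and EMPA + PFD, while Hspa1b was between 2.00 and 4.37 in 18 libraries and at 16.4 in untreated 1. In HFpEF the log2 fold changes were 0.04 (SE 0.34, adjusted p 0.951) and 0.10 (SE 0.54, adjusted p 0.907), and in EMPA + PFD against untreated −0.08 (SE 0.35, adjusted p 0.882) and −1.20 (SE 0.53, adjusted p 0.135). The last rests on untreated 1, without which Hspa1b was 0.06 (adjusted p 0.916), and Hspa1a in HFpEF was −0.38 without HFpEF 1. Hspa1l, their neighbour, overlaps Hspa1a in GRCr8, ranged from 5.03 to 21.3 CPM and was not called.

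Hsph1 encodes HSP105, the inducible HSP110. Hsph1 was 69.1, 76.6 and 81.2 in control 5w and 78.9, 39.2 and 68.0 in HFpEF at week 5. Hsph1 at week 9 was 68.8, 49.8 and 86.8 in control 9w, 66.4, 48.1 and 66.9 in untreated, 51.9 and 65.0 in EMPA, 60.5 and 71.0 in PFD and 73.6, 114 and 67.2 in EMPA + PFD. All untreated and EMPA libraries were below all of control 5w and EMPA + PFD, and the other groups overlapped, with HFpEF 2 the lowest library and EMPA + PFD 2 the highest. Hsph1 was −0.29 (SE 0.26, adjusted p 0.451) in HFpEF and 0.49 (SE 0.26, adjusted p 0.205) in EMPA + PFD against untreated. The first value rests largely on HFpEF 2, since HFpEF 1 and 3, at 78.9 and 68.0, lay near control 5w. The second rests largely on EMPA + PFD 2, at 114 against 73.6 and 67.2 in EMPA + PFD 1 and 3. Dnajb1 encodes HSP40, the J-domain partner of inducible HSP70. Dnajb1 was 40.2, 49.7 and 48.6 in control 5w and 58.8, 53.1 and 51.6 in HFpEF at week 5. Dnajb1 at week 9 was 43.3, 46.5 and 41.7 in control 9w, 39.9, 46.7 and 38.7 in untreated, 31.6 and 32.6 in EMPA, 38.1 and 36.5 in PFD and 38.2, 36.5 and 34.0 in EMPA + PFD. HFpEF was highest and EMPA lowest, and the gene was called across the 7 groups (adjusted p 0.00255) but in no single comparison, where the largest changes were −0.38 (SE 0.12, adjusted p 0.337) in EMPA against untreated and −0.38 (SE 0.10, adjusted p 0.0806) in untreated against HFpEF. Hspb1 encodes HSP27. Hspb1 was 209, 248 and 249 in control 5w and 205, 172 and 223 in HFpEF at week 5. Hspb1 at week 9 was 183, 198 and 253 in control 9w, 174, 155 and 239 in untreated, 197 and 256 in EMPA, 234 and 213 in PFD and 183, 175 and 145 in EMPA + PFD. EMPA + PFD was below all of control 5w, EMPA and PFD, and the other groups overlapped. Hspb1 was −0.23 (SE 0.18, adjusted p 0.362) in HFpEF. Hsp90aa1, the inducible HSP90, ranged from 17.8 to 35.2 CPM and was not called, with 0.26 (SE 0.26, adjusted p 0.487) in HFpEF. That value rests largely on control 5w 1, at 18.2 CPM against 29.5 and 29.5 in control 5w 2 and 3. HFpEF was at 35.2, 24.6 and 32.7.

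**Figure D3:**
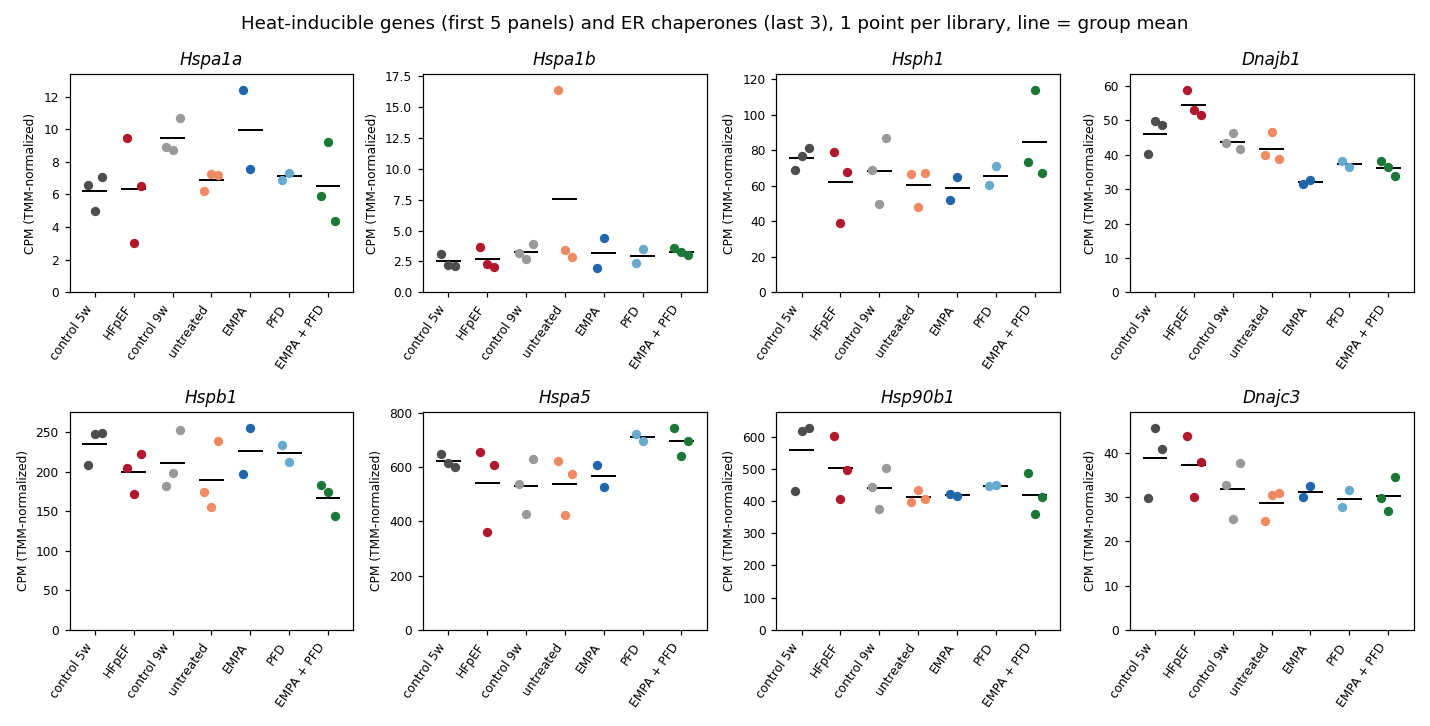
CPM (vertical axis, from 0) of the inducible genes Hspa1a, Hspa1b, Hsph1, Dnajb1 and Hspb1 and the ER genes Hspa5, Hsp90b1 and Dnajc3 in the 19 libraries by group (horizontal axis), 1 point per library, with a line at each group's mean. Untreated 1 stands at 16.4 CPM for Hspa1b, where the other libraries are at 2.00 to 4.37.

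The partners of these chaperones were counted by list, given here as tested genes called higher and lower in HFpEF vs control 5w, control 9w vs control 5w, EMPA + PFD vs untreated and EMPA + PFD vs control 9w, beside the shares of all genes given above. Of 12 HSP70 co-chaperones 0 and 2, 1 and 3, 2 and 0, and 7 and 1 were called. Among these Bag3, the partner of Hspb8, was 1.19 (SE 0.30, adjusted p 0.00774) in EMPA + PFD against control 9w. Grpel1, the nucleotide exchange factor of mortalin, was 1.42 (SE 0.39, adjusted p 0.0127) there, and Bag2 was −1.01 (SE 0.26, adjusted p 0.0165) in HFpEF. Of 16 HSP90 co-chaperones 3 and 4, 6 and 2, 2 and 0, and 7 and 2 were called. Among them Unc45b, which folds myosin with HSP90, was −1.48 (SE 0.30, adjusted p 0.0056) in HFpEF and 1.06 (SE 0.29, adjusted p 0.0139) in EMPA + PFD against control 9w. These 4 genes were named after their values were seen.

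Of 9 genes of mitochondrial quality control 0 and 2, 1 and 1, 2 and 0, and 6 and 1 were called, and Trap1, the HSP90 of mitochondria, was 1.20 (SE 0.24, adjusted p 0.00239) in EMPA + PFD against control 9w. Of the 8 tested subunits of TRiC, the cytosolic chaperonin, 0 and 1, 0 and 4, 0 and 0, and 4 and 0 were called. Of 4 prefoldin subunits 1 and 0, 2 and 1, 0 and 0, and 0 and 1 were called, and of 10 ER folding genes 1 and 0, 1 and 2, 0 and 2, and 0 and 2. Of 4 tested genes of the HSF list, the factors that switch on heat shock genes and a protein that binds them, 1 and 1, 2 and 0, 0 and 0, and 0 and 0 were called. Cryab, the small heat shock gene that overlaps Hspb2, was not called, with −0.66 (SE 0.38, adjusted p 0.227) in HFpEF. Trap1 was named after its values were seen.

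Genes known to respond to handling or the hour of day were counted for the same comparisons. Of 8 immediate early genes 7 and 0, 3 and 0, 0 and 1, and 4 and 0 were called, and of 13 tested clock genes 1 and 0, 7 and 0, 4 and 1, and 1 and 1. The clock gene Arntl was 73.6, 12.2 and 5.01 CPM in EMPA + PFD, 70.3, 76.0 and 71.0 in untreated and 14.1, 17.5 and 16.5 in control 9w. Per2 was 22.5, 141 and 185 in EMPA + PFD, 20.2, 45.8 and 29.4 in untreated and 240, 286 and 210 in control 9w. In both, EMPA + PFD 1 lay within untreated, and EMPA + PFD 2 and 3 lay outside it towards control 9w. Both were picked after their values were seen. Of 6 ventricular cardiomyocyte markers 0 and 1, 0 and 1, 0 and 0, and 1 and 0 were called. Of 5 atrial markers 0 and 0, 2 and 0, 0 and 2, and 0 and 4 were called, of 6 fibroblast markers 0 and 0, 0 and 5, 0 and 0, and 0 and 0, and of 5 endothelial markers 2 and 0, 4 and 0, 0 and 0, and 0 and 4. For 5 smooth muscle and pericyte markers the counts were 0 and 0, 1 and 1, 0 and 0, and 0 and 0, for 5 leukocyte markers 0 and 0, 0 and 2, 0 and 0, and 0 and 0, and for 4 erythroid markers 1 and 0, 0 and 0, 1 and 0, and 0 and 3. None of 3 adipocyte markers was called, and of 3 tested skeletal muscle markers 1 and 0, 2 and 0, 0 and 0, and 0 and 1 were. Their parts in the members' changes were not tested.

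Promoters were available from RefSeq, on the build GRCr8, for 58 of the 73 members, each as the 250 bases before and the 50 after the start of the gene. They were searched on both strands for the heat shock element, the target sequence of HSF1, taken as units of GAA and TTC in alternation with 2 free bases between neighbours. An element of 3 units was found in 5 of the 58 (8.62%), against 267 of all 33469 promoters of the table (0.798%), and one of 2 units in 16 (27.6%) against 5305 (15.9%). Every element of 3 units also holds one of 2. The ER stress element, CCAAT and CCACG with 9 free bases between them, was found in 3 (5.17%), against 22 of all (0.0657%). Of the 5 tested members with 3 units, 1 was called in HFpEF vs control 5w, 1 in control 9w vs control 5w, 0 by edgeR in EMPA + PFD vs untreated and 2 in EMPA + PFD vs control 9w, Hspd1 higher and Dnaja1 lower. Of the 49 tested members without such an element 11, 19, 6 and 21 were called, beside 20%, 34.5%, 12.1% and 33.8% of all genes, and the difference was not tested. The 3 members with the ER stress element, Hspa5, Hsp90b1 and Dnajc3, were called in none of these, and of the 51 without it 12, 20, 6 and 23 were. A match describes letters only and does not show that a factor binds.

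The promoters of the 5 members with 3 units are printed because Hspd1 and Hspe1, the pair of the mitochondrial chaperonin, stand head to head and share 211 bases of these windows, chr9:64084077-64084287, with the same element read from opposite strands. They lie at chr9:64083988-64084287 (minus strand, Hspd1), chr9:64084077-64084376 (plus, Hspe1), chr12:10427118-10427417 (plus, Hsph1), chr8:50080264-50080563 (plus, Hspa8) and chr5:60638154-60638453 (plus, Dnaja1). Each is written 5′ to 3′ on the strand of the gene, and capitals mark the elements of 3 units.
Hspd1: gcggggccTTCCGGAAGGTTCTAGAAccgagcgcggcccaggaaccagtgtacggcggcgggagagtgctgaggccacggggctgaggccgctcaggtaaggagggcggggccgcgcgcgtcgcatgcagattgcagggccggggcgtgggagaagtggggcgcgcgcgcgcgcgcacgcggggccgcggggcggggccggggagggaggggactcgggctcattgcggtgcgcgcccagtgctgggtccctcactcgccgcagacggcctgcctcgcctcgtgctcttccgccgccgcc
Hspe1: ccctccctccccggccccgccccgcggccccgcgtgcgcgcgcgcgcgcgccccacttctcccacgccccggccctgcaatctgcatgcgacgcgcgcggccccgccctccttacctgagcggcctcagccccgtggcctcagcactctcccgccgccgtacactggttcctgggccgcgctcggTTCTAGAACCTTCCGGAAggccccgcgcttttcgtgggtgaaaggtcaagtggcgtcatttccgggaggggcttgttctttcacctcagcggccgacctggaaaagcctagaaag
Hsph1: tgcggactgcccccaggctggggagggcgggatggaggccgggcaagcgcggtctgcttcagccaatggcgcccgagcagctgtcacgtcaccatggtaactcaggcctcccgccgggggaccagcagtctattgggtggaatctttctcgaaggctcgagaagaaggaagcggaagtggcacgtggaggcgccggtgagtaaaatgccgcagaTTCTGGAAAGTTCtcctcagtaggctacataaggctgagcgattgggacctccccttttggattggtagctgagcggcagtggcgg
Hspa8: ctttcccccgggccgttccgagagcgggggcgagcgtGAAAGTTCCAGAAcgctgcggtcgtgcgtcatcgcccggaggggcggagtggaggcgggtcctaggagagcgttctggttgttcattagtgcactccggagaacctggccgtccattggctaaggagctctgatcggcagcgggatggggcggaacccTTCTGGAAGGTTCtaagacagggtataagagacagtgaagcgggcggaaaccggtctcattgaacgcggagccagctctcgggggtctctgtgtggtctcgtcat
Dnaja1: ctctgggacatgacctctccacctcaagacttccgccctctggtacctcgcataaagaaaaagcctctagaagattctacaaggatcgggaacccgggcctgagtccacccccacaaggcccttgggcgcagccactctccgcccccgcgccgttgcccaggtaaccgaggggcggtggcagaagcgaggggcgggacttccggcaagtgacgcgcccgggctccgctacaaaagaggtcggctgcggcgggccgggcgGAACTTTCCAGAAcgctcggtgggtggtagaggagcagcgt

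The promoters of the 3 ER genes are printed because these genes share an element that 0.0657% of promoters hold and none of them was called. They lie at chr3:38452766-38453065 (plus strand, Hspa5), chr7:23012244-23012543 (minus, Hsp90b1) and chr15:102432417-102432716 (plus, Dnajc3), and capitals mark the ER stress element, which Hsp90b1 holds in 2 copies.
Hspa5: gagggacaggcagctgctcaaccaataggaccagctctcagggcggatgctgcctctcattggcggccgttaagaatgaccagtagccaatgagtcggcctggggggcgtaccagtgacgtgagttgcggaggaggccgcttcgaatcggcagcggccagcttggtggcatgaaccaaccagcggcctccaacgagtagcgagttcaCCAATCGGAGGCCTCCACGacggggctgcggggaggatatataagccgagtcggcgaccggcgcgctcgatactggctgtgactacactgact
Hsp90b1: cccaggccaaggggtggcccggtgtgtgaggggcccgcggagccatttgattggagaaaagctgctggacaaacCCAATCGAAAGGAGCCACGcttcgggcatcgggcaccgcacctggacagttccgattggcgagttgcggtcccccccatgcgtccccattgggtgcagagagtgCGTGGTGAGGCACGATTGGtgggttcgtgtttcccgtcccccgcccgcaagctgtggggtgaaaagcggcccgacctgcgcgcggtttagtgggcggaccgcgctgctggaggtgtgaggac
Dnajc3: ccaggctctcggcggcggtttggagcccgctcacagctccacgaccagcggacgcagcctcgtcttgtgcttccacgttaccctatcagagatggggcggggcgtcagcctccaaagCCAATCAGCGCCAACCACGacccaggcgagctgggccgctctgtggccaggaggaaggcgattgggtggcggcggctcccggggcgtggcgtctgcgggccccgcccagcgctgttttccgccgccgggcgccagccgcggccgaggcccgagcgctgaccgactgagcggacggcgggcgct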

How the data were processed

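The files hold whole counts per gene symbol for 19 rat left ventricle libraries, deposited by the authors without normalization after trimming with Trim Galore, alignment to rn6 with HISAT2 and counting with htseq-count. The strand setting, overlap mode and annotation version are not stated. Groups and replicate numbers come from the labels. Counts were filtered with filterByExpr, scaled by TMM and tested with the quasi-likelihood F test of edgeR 4.0.16 (R 4.3.3), in 1 model of the 7 groups, with Benjamini-Hochberg adjustment over 12388 genes. The biological coefficient of variation was 0.257.

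Alternatives were relative log expression and upper quartile scaling, no filter beyond 1 count, at least 10 counts in every library, DESeq2 1.42.0, only the libraries compared, the replicate number as a block, an Eif2s3y covariate, a 2-fold condition, and leaving out each library. Leaving out libraries for the medians of compartments and families was added after seeing the data. Tables and figures were made with Python 3.11.15, pandas 2.3.3 and matplotlib 3.10.9.

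Named are the Hsp family genes and, among J-domain genes, those with the 5 largest called rises or falls of a comparison and 7 chosen whatever their values. The 3 largest rises and falls of a comparison and 5 inducible genes are given in every library. Lists were the HSP70 and HSP90 co-chaperones, TRiC, prefoldin, ER folding, mitochondrial quality control, HSF, other small heat shock, immediate early and clock genes and cell type markers. Members and lists were chosen with earlier results of these data known. Gene overlaps and promoters come from RefSeq on GRCr8, while the counts were made on rn6.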

Additional observations from a re-analysis of the deposited data

Results flagged for a closer look

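For 13 members the effect of the model differed between the time points, by the test of the difference itself in edgeR: the log2 fold change of untreated against control 9w minus that of HFpEF against control 5w, at an adjusted p under 0.05. That is 19.1% of the tested members, near the 20% of all genes. The difference was above 0 for 12 and below 0 for 1, against 9.76% and 10.2% of all genes. It was 3.73 for Dnajc28, 2.72 for Hspa9, 2.04 for Hspa4l, 2.00 for Dnaja4, 1.82 for Hspd1, 1.75 for Dnaja3, 1.58 for Hspb8, 1.40 for Dnajb4, 1.36 for Dnajc16, 1.09 for Hspa13, 1.05 for Dnajc18 and 0.69 for Hspa4, and −0.75 for Dnajc17. Dnajc18 was named after its values were seen. Of the 4 groups in this test, control 5w and control 9w all have Eif2s3y counts, untreated has none, and HFpEF has them in 1 library of 3, so the time point cannot be told apart from this split.

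Leaving out untreated 1 removed the calls of Dnaja3 (adjusted p 0.0532), Hspa4l (0.0537), Hspd1 (0.0566), Dnaja4, Hspa13 and Hspa4. Dnaja4 was lost also without control 9w 2, at adjusted p of 0.0509 to 0.0512 in the 2 fits, Hspa13 in 6 fits at 0.0506 to 0.0678, and Hspa4 in 8 fits at 0.0506 to 0.0973. With the Eif2s3y covariate Hspa13 was 0.97 at an adjusted p of 0.0624 and Hspa4 0.58 at 0.0787, neither called. The calls of Dnajc28, Hspa9, Hspb8, Dnajb4, Dnajc16, Dnajc17 and Dnajc18 were kept in all 19 fits that leave out 1 library.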

How the results depend on the processing

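The count of members called across the 7 groups, 31, was 26 to 41 under the alternatives that keep all libraries and 20 to 38 when 1 library was left out (38.2% to 55.9% of all genes). For the range of 26 to 41 no share of all genes is given. Fitting only the libraries compared changed 13 to 5 members in HFpEF vs control 5w, 8 to 0 in EMPA + PFD vs untreated (15 at an unadjusted p under 0.05, against 28% of all genes) and 13 to 8 in the difference of disease effects. Of all genes 6.01%, 0.0435% and 13.1% were called there, in the same order. Fewer libraries estimate the spread in these fits. DESeq2 called 22 in HFpEF vs control 5w, 17 in EMPA + PFD vs untreated and 20 in the difference of disease effects, against 26%, 20.6% and 25.9% of all genes, and 4 in untreated vs control 9w, 3 in untreated vs HFpEF, 1 in EMPA vs untreated and 1 in the interaction of the drugs. The 2-fold condition left 5 in HFpEF vs control 5w, 10 in control 9w vs control 5w, 4 in EMPA + PFD vs untreated and 13 in EMPA + PFD vs control 9w. The Eif2s3y covariate left 5 in EMPA + PFD vs untreated, with no share of all genes given. Apart from the construction of the fits and of the 2-fold condition, the cause was not tested.

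Leaving out 1 library gave 6 to 20 members in HFpEF vs control 5w (12% to 25.3% of all genes), 9 to 27 in control 9w vs control 5w (20.9% to 38.4%), 0 to 11 in untreated vs control 9w (0.0647% to 8.22%), 0 to 14 in untreated vs HFpEF (0.0325% to 14.5%), 1 to 13 in EMPA + PFD vs untreated (0.888% to 18.3%), 16 to 31 in EMPA + PFD vs control 9w (20% to 37%) and 7 to 24 in the difference of disease effects (10.7% to 29.9%). It gave 0 to 0 by edgeR in EMPA vs untreated, PFD vs untreated and the interaction, where the fits with all libraries had 6, 1 and 11 members at an unadjusted p under 0.05 and DESeq2 called 1, 0 and 1, beside the shares of all genes given above. Leaving out an EMPA or PFD library leaves 1, which is assumed to vary like the other groups.

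With the replicate number as a block the counts were 26 across the groups, 12 in HFpEF vs control 5w, 21 in control 9w vs control 5w, 7 in EMPA + PFD vs untreated, 26 in EMPA + PFD vs control 9w and 13 in the difference of disease effects. No share of all genes is given for this fit, so its counts show only how the members' calls moved. As a check of the pairing, 52 pairs of libraries with the same number in different groups had correlations of −0.532 to 0.493, with a median of −0.0665, and 11 exceeded 0.1, against a median of 0.038 in 102 other pairs. The libraries were treated as unpaired.

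The sign of the members' median was kept under all 27 alternatives except 2 each for untreated vs control 9w and EMPA vs untreated. Of 1064 medians of a compartment or family with 1 library left out, chosen after seeing the data, 22 moved by more than the spread between replicates. A median near 0 can change its sign within that spread. For the 3 tested vesicle and endosome members in control 9w vs control 5w it was −0.000807 and ran from −0.0342 to 0.0357. No call of a single member was reversed. Depth limits the members with few counts, Dnajc6 and Dnajb13, most. Groups of 2 or 3 hearts, no stated strand and no gene lengths for rn6 limit all results, and protein was not measured here. Labels of sex that the counts contradict limit the comparisons whose groups differ in Eif2s3y, and the others through the model they share.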
